A study of Mus musculus with 16 samples.

Results

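Macrophages of the airspace carry receptors with which they bind bacteria, dying cells and antibody-coated particles. The 10 genes described here encode such receptors, and they were taken by symbol from the 23159 genes of the deposited count table. They are the scavenger receptors Msr1, Marco and Scarb1, the receptor tyrosine kinases Mertk and Axl, the beta-glucan receptor Clec7a (dectin-1), and the Fc gamma receptors Fcgr1, Fcgr2b, Fcgr3 and Fcgr4. All 10 were in the table, and 10 of 10 passed the filter on low counts that left 12455 genes for testing.

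The RNA came from macrophages in bronchoalveolar lavage fluid of mice, described by the series as male, and was sequenced as poly(A)-selected libraries with paired reads. There were 4 groups of 4 libraries each: TLR3-KO injured, TLR3-KO control, WT injured and WT control. Injured mice had pneumonia from Klebsiella pneumoniae, strain 43816 of serotype 2, given into the throat as a suspension made to hold 500 CFU in 30 µl, and control libraries carry no treatment in their labels although the protocol also names saline. TLR3-KO mice lack Toll-like receptor 3, a sensor of double-stranded RNA in endosomes, and WT mice served as the genotype they were set against. No source used here gives the mouse strain, the age, the time after infection or whether each library is a separate mouse, so the p-values below speak for the spread of these libraries alone. The series text speaks of 15 samples, and 16 libraries with labels were analysed.

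Scavenger receptors bind modified lipoproteins, bacterial surfaces and debris and carry them into the cell. Mertk and Axl recognise dying cells through bridging proteins that attach to exposed phosphatidylserine, Gas6 for both and protein S for Mertk. Fc gamma receptors bind the constant part of IgG, and most of them signal activation through the common gamma chain, whereas Fcgr2b carries an inhibitory motif. Dectin-1 binds fungal beta-glucans and signals through Syk. Alveolar macrophages are known for abundant Marco and dectin-1 and for Axl at rest.

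The libraries held 29667102 to 59640251 counts, and levels are given as CPM, the count scaled to one common library total. Tlr3 itself averaged 0.491 ± 0.135 CPM in TLR3-KO injured and 0.529 ± 0.211 CPM in TLR3-KO control libraries, against 3.44 ± 0.850 CPM in WT injured and 3.48 ± 1.23 CPM in WT control libraries (SD, n = 4 each), so the genotype labels held. All 8 general macrophage markers were detected, among them Mertk and Fcgr1, which are also receptors described here. The controls stood apart by replicate number: replicates 1 and 2 differed from 3 and 4 in both genotypes, and no label names a batch. TLR3-KO controls 1, 2 and 3 held 42.3, 31.6 and 20.3 CPM of Xist, a transcript of female cells, where the other 13 libraries held at most 0.230 CPM. The Y-linked genes Ddx3y, Eif2s3y, Kdm5d and Uty averaged 23.5, 17.0, 3.66 and 4.32 CPM in TLR3-KO controls. In WT controls they averaged 80.8, 73.6, 13.8 and 20.2 CPM. Where TLR3-KO controls 1, 2 and 3 enter, sex cannot be fully told apart from genotype or infection. Some results that use these libraries are also given without them, and others are not. Several log2 fold changes of receptors that use these libraries moved widely over the 25 alternative fits. Fcgr2b ranged from −0.26 to 0.85 within TLR3-KO and from −0.63 to 0.44 between TLR3-KO and WT controls. Fcgr1 ranged from −0.74 to 0.46 between these controls, and Axl from −0.13 to 0.81 within TLR3-KO. In bulk RNA, fewer cells of a type and less RNA per cell cannot be told apart.

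Clec7a was the most abundant of these receptors per length of transcript. Its level over all 16 libraries averaged 989 CPM per kb of merged exons. Marco averaged 479, Axl 399, Fcgr3 165, Mertk 78.3, Fcgr4 38.1, Scarb1 25.5, Fcgr2b 16.5, Msr1 13.6 and Fcgr1 6.01 CPM per kb. Clec7a did not fall under 756 CPM per kb in any library, above the highest Marco library at 654 CPM per kb. Axl, at 270.1 CPM per kb or more, also stayed above Fcgr3, at 269 CPM per kb or less, though only just. Every other pair of neighbours in this order overlapped in its range over libraries. Msr1 varied most among libraries, with a coefficient of variation of 46.7%, and Fcgr1 came next with 37.8%; the other receptors lay between 18.6% for Clec7a and 28.6% for Mertk.

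**Figure D1:**
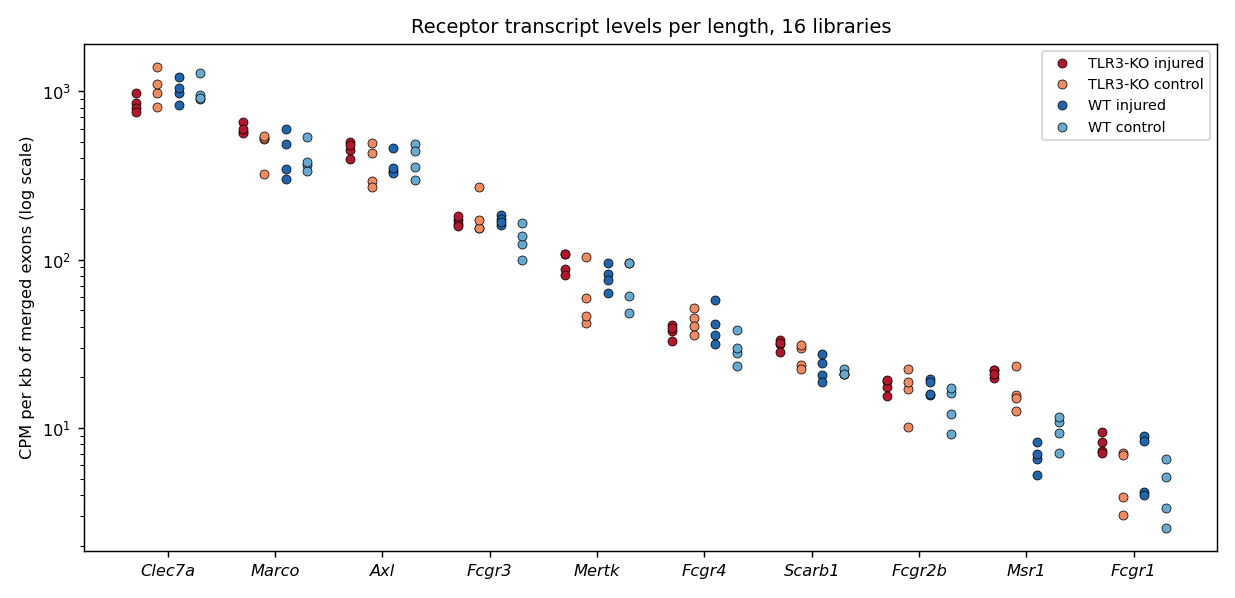
Level of each receptor transcript in the 16 libraries, in CPM per kb of merged exons on a log scale, with genes ordered by their mean. Points are single libraries coloured by group; Clec7a lies highest (mean 989), Fcgr1 lowest (mean 6.01), and Msr1 is the gene whose TLR3-KO and WT points separate.

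Msr1 encodes the class A scavenger receptor, a trimeric membrane protein that binds modified lipoproteins and bacterial lipids. It was higher in TLR3-KO than in WT macrophages, and it was the receptor with the largest genotype difference of the 10. Injured TLR3-KO libraries held 126, 139.9, 141 and 133 CPM of Msr1, against 33.4, 41.6, 52.3 and 44.2 CPM in injured WT libraries. Control TLR3-KO libraries held 80.2, 99.1, 96.0 and 148 CPM, against 59.1, 68.4, 44.8 and 74.1 CPM in control WT libraries. In both states each TLR3-KO library lay above each WT library of that state, and all 8 TLR3-KO libraries lay above all 8 WT libraries, as did 0.313% of the genes tested. The separation was wide in injured mice and narrow in controls, where the lowest TLR3-KO library, at 80.2 CPM, stood just above the highest WT library, at 74.1 CPM.

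Injured TLR3-KO macrophages had a mean of 135 ± 6.76 CPM and injured WT macrophages one of 42.9 ± 7.78 CPM (SD, n = 4 each). The log2 fold change was 1.63 (SE 0.17), a 3.09-fold higher level, and edgeR's quasi-likelihood fit over all genes gave it an adjusted p of 0.000115. Msr1 was the 1 of 10 receptors called in this comparison, where 0.618% of all genes tested were called. Averaged over both states, the log2 fold change between TLR3-KO and WT was 1.16 (SE 0.12), with an edgeR adjusted p of 6.32e-05. It was again 1 of 10 receptors called, against 2.01% of all genes. Both calls held under every alternative run, with adjusted p-values of at most 0.00169 in injured mice and 0.000846 over both states. Erythroid RNA moved with the genotype in injured mice too. The sum of 6 erythroid markers, with Hba-a1 at 0 in all libraries, was 73.6 to 199 CPM in TLR3-KO injured and 331 to 709 CPM in WT injured libraries (exact permutation p 0.0286, adjusted p 0.180 over 44 tests of marker sums), and its part in the Msr1 values was not tested.

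Control TLR3-KO macrophages averaged 106 ± 29.4 CPM of Msr1 and control WT macrophages 61.6 ± 12.8 CPM, a log2 fold change of 0.69 (SE 0.17). The edgeR adjusted p was 0.0591, so none of the 10 receptors was called in this comparison, where 0.699% of all genes were. Unadjusted p-values under 0.05 were found for 3 of them, Msr1, Fcgr3 and Fcgr4, and for 19.9% of all genes, so this count lay near that share. DESeq2 called Msr1 alone, with an adjusted p of 0.00784 where 6.27% of all genes were called. By edgeR it was called without TLR3-KO control 2, where 3.71% of all genes were, or without WT injured 1, where 3% were. Between controls 1 and 2 alone the difference was 0.39 (edgeR adjusted p 0.189), and between controls 3 and 4 alone it was 0.97 (edgeR adjusted p 0.155). Without the TLR3-KO controls 1, 2 and 3 that held Xist, the difference rested on the single library TLR3-KO control 4, the highest of all for Msr1; it was then 1.08 (SE 0.22, edgeR adjusted p 0.135), with that library assumed to vary like the other groups.

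Within a genotype, pneumonia went with a lower mean of Msr1 in WT and a higher mean in TLR3-KO macrophages, and neither change passed the test. WT injured libraries were 0.64 log2 units under WT controls (SE 0.17, edgeR adjusted p 0.197), and TLR3-KO injured libraries 0.30 log2 units over TLR3-KO controls (SE 0.17, edgeR adjusted p 0.276). The groups overlapped in both genotypes. The difference of the 2 responses, TLR3-KO minus WT, was 0.94 (SE 0.24, edgeR adjusted p 0.235). By edgeR 0.0% of all genes were called for that difference, while 2217 genes (17.8%) had an unadjusted p under 0.05; DESeq2 called 98 genes (0.787%), Msr1 among them with an adjusted p of 0.0363. DESeq2 also called the fall of Msr1 in injured WT macrophages (adjusted p 0.0284), where it called 1.45% of all genes. Without controls 3 and 4 edgeR did so too (−0.76, adjusted p 0.00801), where 13% of all genes were called. The erythroid sum was higher in WT injured than in WT control libraries, which held 11.4 to 151 CPM (exact permutation p 0.0286, adjusted p 0.180); its part was not tested. Without TLR3-KO controls 1, 2 and 3 the TLR3-KO change turned to −0.09.

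**Figure D2:**
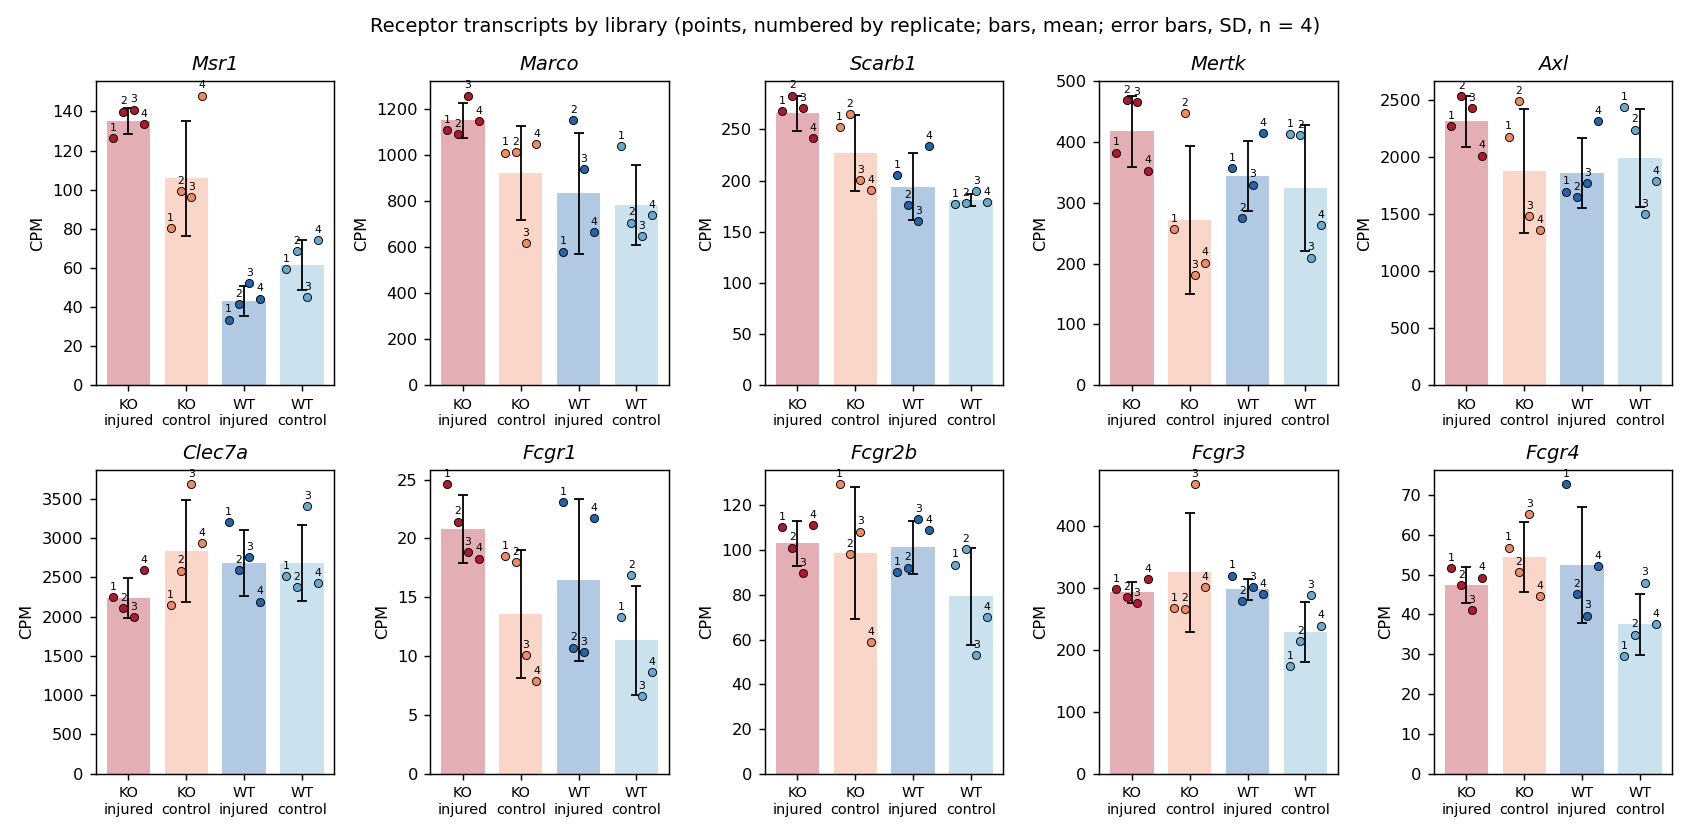
Level of each of the 10 receptor transcripts in CPM by group, TLR3-KO injured to WT control from left to right. Points are libraries numbered by replicate, bars are means and error bars SD (n = 4); for Msr1 the 8 TLR3-KO libraries lie between 80.2 and 148 CPM and the 8 WT libraries between 33.4 and 74.1 CPM.

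Msr1 lies at chr8:39581685-39642673 in mm10, 5.75 Mb from Tlr3 on the same chromosome, and its 11 merged exons share no 50-base window with another gene. Within 10 Mb on either side of Tlr3, 46 genes were tested. Of these, 10 (21.7%) were called between TLR3-KO and WT in injured mice, against 0.532% of the genes elsewhere. In controls 7 of the 46 (15.2%) were called, against 0.637% elsewhere. Averaged over states it was 14 of 46 (30.4%), against 1.89% elsewhere.

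The neighbours went in both directions, with 6 higher and 8 lower in TLR3-KO macrophages among the 14 called over both states. Mtmr7, which encodes a myotubularin-related phosphatase, differed by −2.21 log2 units (edgeR adjusted p 4.46e-10) and lies 4.76 Mb from Tlr3. Mfhas1, 9.72 Mb away, differed by 1.54 (adjusted p 7.31e-09), and Vps37a, a subunit of the endosomal sorting machinery 4.84 Mb away, by −0.49 (adjusted p 0.00612). The lysosomal ceramidase gene Asah1, 4.02 Mb away, differed by −0.51 (adjusted p 0.00236). By size of its difference in injured mice, Msr1 ranked 8 of these 46 genes. Loss of Tlr3 and other sequence differences on this stretch of chromosome 8 cannot be told apart with these libraries.

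**Figure D3:**
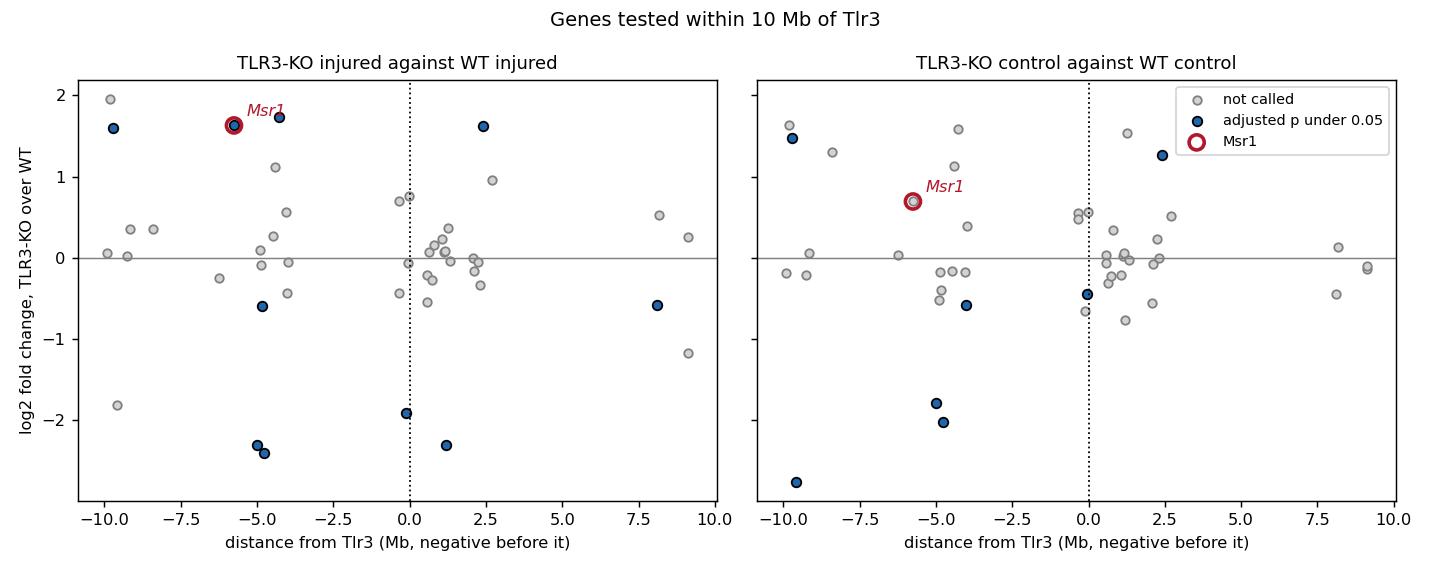
Genotype difference, as log2 fold change of TLR3-KO over WT, of the 46 genes tested within 10 Mb of Tlr3, by distance from it in Mb, in injured mice (left) and controls (right). Blue points passed an edgeR adjusted p of 0.05, grey points did not, and the red ring marks Msr1 at 1.63 in injured mice and 0.69 in controls.

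Scarb1 encodes the class B scavenger receptor SR-BI, which takes up cholesterol from high-density lipoprotein and binds bacterial products. It leaned the same way as Msr1, by less, and did not pass edgeR's test. Injured TLR3-KO libraries held 268, 283, 271 and 242 CPM of Scarb1, against 206, 176, 160.1 and 234 CPM in injured WT libraries. Control TLR3-KO libraries held 252, 265, 200.1 and 191 CPM, against 177, 178, 189.5 and 179 CPM in control WT libraries. Before TMM scaling, the TLR3-KO libraries lay above the WT libraries of the same state without overlap in both states. In injured mice 9.14% of all genes tested did so and in controls 5.92%. Thus 2 of 10 receptors, Msr1 and Scarb1, stood apart in each. With the TMM factors, Scarb1 overlapped in both states. TLR3-KO injured 4 (factor 1.05) then lay under WT injured 4 (1.005), and TLR3-KO control 4 (1.07) under WT control 1 (0.896).

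Averaged over states the Scarb1 log2 fold change between TLR3-KO and WT was 0.34 (SE 0.10), with an edgeR adjusted p of 0.0966. DESeq2 gave an adjusted p of 0.0466, where it called 6.62% of all genes. The edgeR call was reached without WT injured 4, without TLR3-KO control 4, or without controls 3 and 4 of both genotypes (0.44, adjusted p 0.0275). In these fits 3.8%, 2.48% and 5.96% of all genes were called. Without TLR3-KO controls 1, 2 and 3 it was 0.16 (adjusted p 0.608). Scarb1 lies at chr5:125277087-125341094.

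Marco encodes a second class A scavenger receptor, which binds unopsonised bacteria and particles and lies at chr1:120474538-120505024. Before the TMM scaling of the fits, it was higher in injured TLR3-KO than in control TLR3-KO libraries without overlap. Its levels were 1109, 1090.0, 1259 and 1148 CPM, against 1010.5, 1012, 619 and 1046 CPM. It was the 1 receptor of 10 to do so, where 11.2% of all genes did. The TMM factors were 0.928 for TLR3-KO control 1 and 1.04 for TLR3-KO injured 2. With them this control lay above that injured library, so the separation of Marco rests on unscaled levels alone. The log2 fold change was 0.25 (SE 0.22, edgeR adjusted p 0.484). TLR3-KO control 3 stood far under the other 3 libraries of its group. WT libraries spread more widely, with 580, 1152, 938 and 664 CPM in injured mice, against 1038, 706, 648 and 737 CPM in controls. Between TLR3-KO injured and WT injured libraries the log2 fold change was 0.44 (SE 0.22, edgeR adjusted p 0.335).

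For the response to pneumonia, no receptor of the 10 was called by edgeR within TLR3-KO macrophages, where 1.54% of all genes were, within WT macrophages, where 0.0161% were, or averaged over genotypes, where 2.34% were. In each of these 3 comparisons 1 receptor of 10 had an unadjusted p under 0.05, where 24.0%, 10.7% and 16.4% of all genes did, so the count was at or under that share. DESeq2 called 0, 1 and 0 of them, where it called 8.28%, 1.45% and 6.22% of all genes; the 1 was Msr1 in WT macrophages. The median log2 fold change of the 10 receptors was 0.19 within TLR3-KO, where that of all genes was −0.01, and −0.02 within WT macrophages, where that of all genes was 0.01.

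**Figure D4:**
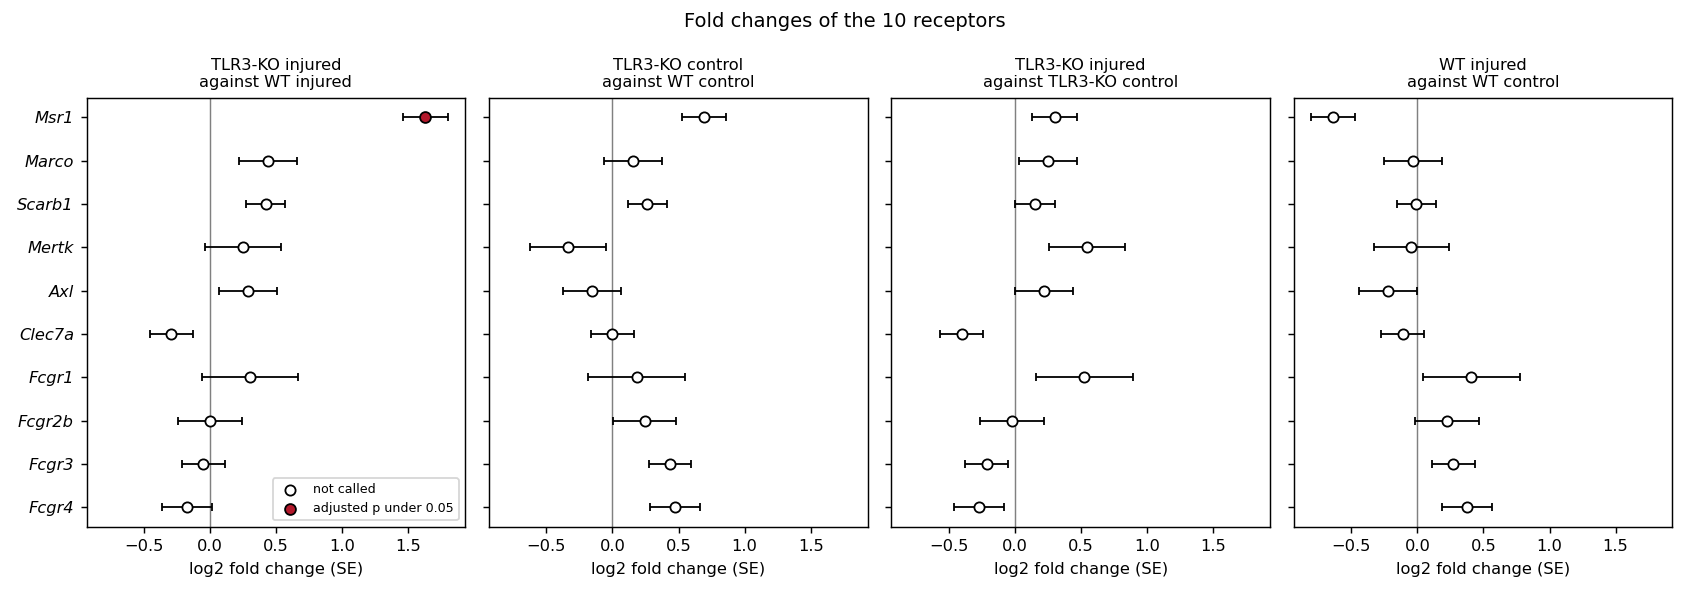
Log2 fold change of the 10 receptors in 4 comparisons, with error bars of 1 SE from edgeR. The filled point is the one with an adjusted p under 0.05, Msr1 at 1.63 in TLR3-KO injured against WT injured; the open points were not called.

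Mertk and Axl, receptor kinases for the bridging proteins of dying cells at chr2:128698956-128802894 and chr7:25757273-25788705, had higher means in injured TLR3-KO than in control TLR3-KO macrophages, with wide spread among the controls. Mertk was at 383, 469, 466 and 353 CPM in injured TLR3-KO libraries, against 257, 448, 181 and 202 CPM in TLR3-KO controls (log2 fold change 0.54, SE 0.29, edgeR adjusted p 0.254). In WT libraries Mertk was at 357, 275, 330.1 and 415 CPM in injured mice, against 413, 412, 210.0 and 263 CPM in controls (−0.04, SE 0.29). The controls of both genotypes thus spanned a wider range than the injured libraries, and the groups overlapped in both.

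Axl was at 2271, 2534, 2423 and 2009 CPM in injured TLR3-KO libraries, against 2177, 2490.0, 1483 and 1359 CPM in TLR3-KO controls (log2 fold change 0.22, SE 0.22, edgeR adjusted p 0.545). In WT libraries Axl was at 1695, 1646, 1772 and 2311 CPM in injured mice, against 2437, 2237, 1499 and 1784 CPM in controls (−0.22, SE 0.22, adjusted p 0.738). In CPM, controls 1 and 2 were higher than controls 3 and 4 in both genotypes for Axl, Mertk and the high-affinity IgG receptor Fcgr1. For Mertk the means of controls 1 and 2 against 3 and 4 were 352 and 191 CPM in TLR3-KO, and 413 and 236 CPM in WT macrophages. The low-affinity receptor Fcgr3 was the 1 receptor lower in CPM in controls 1 and 2 of both genotypes. Higher in both were thus 3 of 10 receptors, against 15.0% of all genes, and lower in both 1 of 10, against 30.7%. With the TMM scaling of the fits, the pairs of controls overlapped for Fcgr3 in both genotypes, and Marco was higher in controls 1 and 2 of both. Shares of all genes were taken before that scaling only, so these counts and shares describe unscaled levels.

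The calls for the response to pneumonia changed with the controls that were used. Set against controls 3 and 4 alone, 5 of 10 receptors were called by edgeR in TLR3-KO macrophages: Mertk at 1.12 (adjusted p 0.00168), Axl at 0.69 (0.00755), Fcgr1 at 1.20 (0.0192), Scarb1 at 0.43 (0.0476) and Clec7a at −0.58 (0.0335). In that fit 32.2% of all genes were called, and none of the 10 was called within WT macrophages, where 0.501% of all genes were. Set against controls 1 and 2 alone, none of the 10 was called in TLR3-KO macrophages, where 0.654% of all genes were. The same 5 genes then stood at 0.14 for Mertk, −0.13 for Axl, 0.08 for Fcgr1, −0.07 for Scarb1 and −0.19 for Clec7a. In WT macrophages Axl was called at −0.51 (adjusted p 0.0357), Msr1 at −0.76 and Fcgr3 at 0.44 (adjusted p 0.0243), with 13% of all genes called. What sets the pairs of controls apart was not tested.

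The promoters of Axl, Mertk and Fcgr1 are shown because these genes were all higher in controls 1 and 2. Of the 10 receptors, 8 have an entry among the RefSeq promoters (GRCm38.p6), each 250 bases before to 50 after the start that RefSeq gives; Msr1 and Scarb1 are the others. Sequences run 5′ to 3′ on the strand of the gene. Capitals mark GGGCGG, the box bound by Sp1, or its reverse complement in Axl and Mertk, and the letters TTCNNNGAA of an interferon-gamma activated sequence in Fcgr1.
Axl, chr7:25788684-25788983, minus strand: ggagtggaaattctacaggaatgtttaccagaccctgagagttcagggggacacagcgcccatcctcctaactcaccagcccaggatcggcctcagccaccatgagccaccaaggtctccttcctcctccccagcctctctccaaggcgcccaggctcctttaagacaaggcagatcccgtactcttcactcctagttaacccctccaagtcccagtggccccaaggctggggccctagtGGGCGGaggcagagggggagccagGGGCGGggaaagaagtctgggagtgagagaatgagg
Mertk, chr2:128698665-128698964, plus strand: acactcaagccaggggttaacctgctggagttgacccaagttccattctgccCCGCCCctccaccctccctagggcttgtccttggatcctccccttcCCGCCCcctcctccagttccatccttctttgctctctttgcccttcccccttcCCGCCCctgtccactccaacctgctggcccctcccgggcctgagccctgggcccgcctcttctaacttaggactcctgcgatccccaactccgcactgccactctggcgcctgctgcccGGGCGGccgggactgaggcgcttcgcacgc
Fcgr1, chr3:96293920-96294219, minus strand: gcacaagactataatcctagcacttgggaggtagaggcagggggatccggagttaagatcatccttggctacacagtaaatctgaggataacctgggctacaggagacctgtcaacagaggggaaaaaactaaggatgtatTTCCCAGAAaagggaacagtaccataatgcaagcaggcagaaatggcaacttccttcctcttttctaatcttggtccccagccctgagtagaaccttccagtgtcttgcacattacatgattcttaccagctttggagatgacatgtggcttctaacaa
Searched on both strands, GGGCGG was found at 2 places in Axl and 4 in Mertk, and in 35.7% of 32851 promoters. TTCNNNGAA began 109 bases before the start in Fcgr1 and was in 8.30% of all promoters. GAGGAA, a core of PU.1 sites, had 1 match each in Axl and Fcgr1, outside the capitals, and was in 28.3% of all promoters. None of the marked letters overlap another motif searched. A match describes the letters of the window and nothing more.

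The bridging proteins and other genes of dying-cell uptake were measured in the same libraries. Pros1, which encodes protein S, averaged 379 ± 24.8 CPM in TLR3-KO injured, 243 ± 94.4 CPM in TLR3-KO control, 284 ± 78.1 CPM in WT injured and 251 ± 31.8 CPM in WT control libraries (SD, n = 4 each). Its log2 fold change within TLR3-KO macrophages was 0.56 (SE 0.25, edgeR adjusted p 0.192). Gas6 was scarce, with a highest library of 1.72 CPM. Of 21 tested genes of this list, which holds bridges, ligands, receptors and sheddases, 1 was called in any of the 7 comparisons: Adam17, the protease that cleaves Mertk from the cell surface. Adam17 was at 259, 345, 216 and 262 CPM in TLR3-KO controls, against 612, 573, 382 and 449 CPM in WT controls, with no overlap (log2 fold change −0.98, SE 0.20, edgeR adjusted p 0.0390). In that comparison 0.699% of all genes were called, 0.434% as lower, and 2.22% were lower without overlap. The Adam17 call was lost under 14 of 25 alternatives, among them a fit with the replicate number as a block (adjusted p 0.0560), with log2 fold changes of −1.14 to −0.85. Without TLR3-KO controls 1, 2 and 3 it was −1.14 (adjusted p 0.234). Among 23 tested genes of the engulfment machinery edgeR called none. By comparison 1 to 7 had an unadjusted edgeR p under 0.05, where 10.7% to 24.0% of all genes did. DESeq2 called 0 to 3, where it called 0.787% to 8.28% of all genes. Those of lowest p were Vav3, an exchange factor for Rac, which averaged over genotypes was −0.57 in injured against control libraries (SE 0.15, adjusted p 0.0571), and Rab7, a late endosome GTPase, which averaged over states was −0.18 in TLR3-KO against WT (SE 0.06, adjusted p 0.112).

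Clec7a, at chr6:129461591-129472779, encodes dectin-1. Injured TLR3-KO libraries held 2249, 2107, 1994 and 2592 CPM, against 2143, 2584, 3683 and 2938 CPM in TLR3-KO controls. The log2 fold change was −0.40 (SE 0.16, unadjusted p 0.0232, edgeR adjusted p 0.154), and the groups overlapped. In WT macrophages Clec7a was at 3199.8, 2590.3, 2756 and 2189 CPM in injured mice, against 2514, 2378, 3406 and 2421 CPM in controls (−0.11, SE 0.16). The highest library was TLR3-KO control 3. That library also held the highest sum of 11 dendritic cell markers, 3016 CPM, where the other 3 TLR3-KO controls held 486 to 1052 CPM and the other 3 groups 183 to 654 CPM; none of these markers was at 0 in all libraries, and their part in the Clec7a values was not tested.

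Of 15 other C-type lectin receptors tested, 2 were called, both lower in injured than in control TLR3-KO macrophages, where 0.642% of all genes were called lower. Clec9a, a receptor of dendritic cells and itself among the markers just given, was at 1.22, 1.35, 0.809 and 1.04 CPM in injured TLR3-KO libraries, against 2.16, 2.42, 4.47 and 2.67 CPM in TLR3-KO controls (log2 fold change −1.45, SE 0.30, edgeR adjusted p 0.0374). Clec1b (CLEC-2), a receptor for podoplanin, was at 9.53, 7.10, 6.0 and 7.88 CPM in injured TLR3-KO libraries, against 13.3, 12.5, 124 and 30.4 CPM in TLR3-KO controls (−2.60, SE 0.57, edgeR adjusted p 0.0415). The groups did not overlap in either gene, as in 3.05% of all genes that were lower, and the mean of the Clec1b controls rested on control 3. Without that library Clec1b stood at −1.33 (adjusted p 0.0915) and Clec9a at −1.18 (adjusted p 0.105). Without TLR3-KO controls 1, 2 and 3 they stood at −1.95 (adjusted p 0.0746) and −1.22 (adjusted p 0.132). The median of the 15 was −0.32, where that of all genes was −0.01.

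Of the 4 Fc gamma receptors, Fcgr3 made up most of the RNA in all groups. Taken per kb, Fcgr3 made up 72.7% ± 1.35 of their summed RNA in TLR3-KO injured, 73.6% ± 5.51 in TLR3-KO control, 72.5% ± 3.10 in WT injured and 72.9% ± 3.74 in WT control libraries (SD, n = 4 each). Fcgr4 made up 16.2% to 17.4% as group means, the inhibitory Fcgr2b 6.89% to 7.98%, and Fcgr1 2.203% to 3.46%. The scarcer ones varied more by library, Fcgr2b from 4.25% to 11.2% and Fcgr1 from 1.13% to 3.94%. The 3 genes Fcgr2b, Fcgr4 and Fcgr3 lie close together on chromosome 1, at chr1:170958617-170976547, chr1:171018920-171029761 and chr1:171051174-171064935, and Fcgr1 lies on chromosome 3. Fcgr2b and Fcgr3 have near-identical stretches, and 166 of the 1733 50-base windows of Fcgr3 (9.58%) also occur in Fcgr2b. Their split is uncertain for reads from these windows. Of the windows of Fcgr2b 6.95% occur in another gene, which is Fcgr3 for some and Gm38204 or Cplx2 for others.

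**Figure D5:**
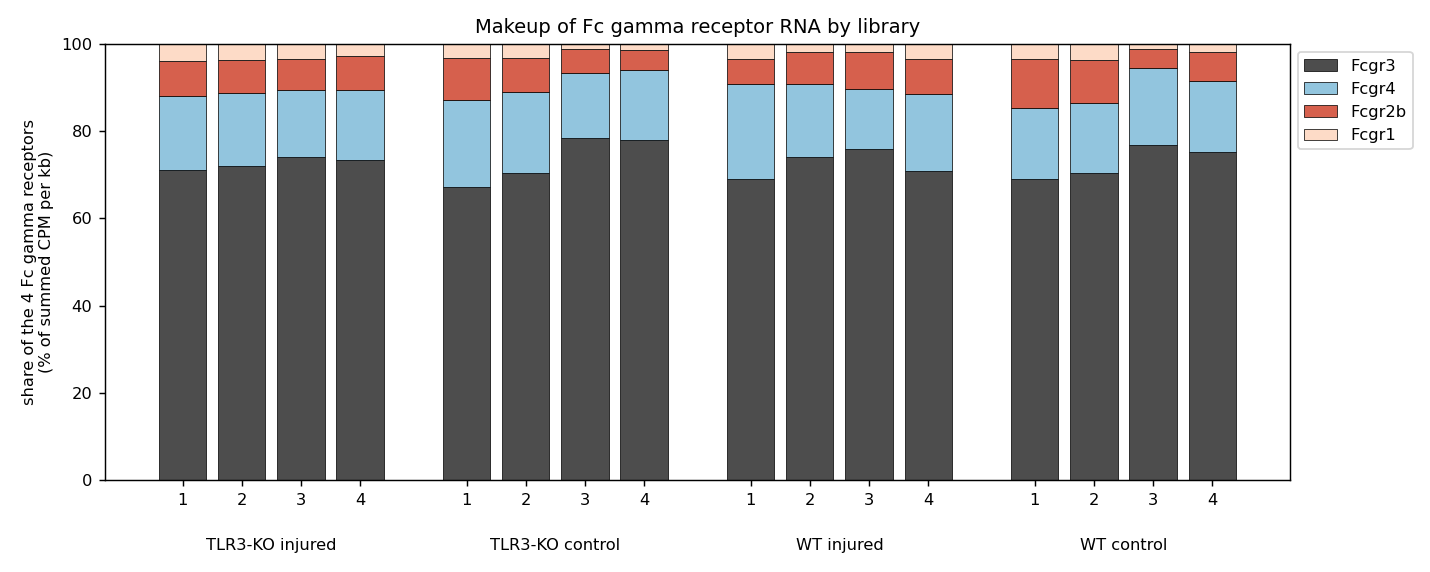
Share of each of the 4 Fc gamma receptors in their summed CPM per kb, in percent, for each of the 16 libraries by group and replicate number. Fcgr3 takes 67.3% to 78.3% in TLR3-KO controls and 69.1% to 76.9% in WT controls, and is higher in controls 3 and 4 than in 1 and 2 of both genotypes.

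Fcgr3 and Fcgr4, activating receptors of low and intermediate affinity, had higher means in TLR3-KO than in WT controls, and neither passed the test. Fcgr3 was at 267, 267, 467 and 301 CPM in TLR3-KO controls, against 173, 214, 289 and 239 CPM in WT controls (log2 fold change 0.44, SE 0.16, edgeR adjusted p 0.168). Fcgr4 was at 56.8, 50.6, 65.2 and 44.7 CPM in TLR3-KO controls, against 29.4, 34.9, 48.0 and 37.5 CPM in WT controls (0.47, SE 0.19, adjusted p 0.194). In both genes WT control 3 alone reached above the lowest TLR3-KO control. Fcgr3 was highest in TLR3-KO control 3, the library high in dendritic cell markers; without TLR3-KO controls 1, 2 and 3 its log2 fold change was 0.22 and that of Fcgr4 0.07.

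After pneumonia the genotypes were close. Fcgr3 averaged 293 ± 16.6 CPM in TLR3-KO injured and 298 ± 17.4 CPM in WT injured libraries, and Fcgr4 averaged 47.3 ± 4.49 CPM in TLR3-KO injured and 52.4 ± 14.5 CPM in WT injured libraries (SD, n = 4 each). The differences were −0.05 for Fcgr3 (SE 0.16, edgeR adjusted p 0.898) and −0.18 for Fcgr4 (SE 0.19, edgeR adjusted p 0.653). The difference of the responses, TLR3-KO minus WT, was −0.49 for Fcgr3 (SE 0.23, unadjusted p 0.0497, edgeR adjusted p 0.281) and −0.65 for Fcgr4 (SE 0.27, unadjusted p 0.0278, adjusted p 0.248). With Msr1 these were the 3 of 10 receptors with an unadjusted p under 0.05 for that difference, where 17.8% of all genes had one.

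Fcgr1 was the scarcest receptor and Fcgr2b varied among controls. Fcgr1, at chr3:96282909-96293969, was at 24.6, 21.4, 18.8 and 18.3 CPM in injured TLR3-KO libraries, against 18.5, 17.97, 10.1 and 7.87 CPM in TLR3-KO controls. In WT libraries it was at 23.1, 10.7, 10.3 and 21.7 CPM in injured mice, against 13.3, 16.9, 6.60 and 8.61 CPM in controls. Averaged over genotypes it was 0.47 log2 units higher in injured than in control libraries (SE 0.26, edgeR adjusted p 0.398); against controls 3 and 4 alone this was 1.14 (adjusted p 0.00550), in a fit that called 27.2% of all genes, and against controls 1 and 2 alone it was 0.016 (adjusted p 0.970). Fcgr2b averaged 103 ± 10.04 CPM in TLR3-KO injured, 98.6 ± 29.6 CPM in TLR3-KO control, 101 ± 11.8 CPM in WT injured and 79.3 ± 21.7 CPM in WT control libraries, with log2 fold changes of −0.02 within TLR3-KO and 0.22 within WT macrophages, neither called. Both signs changed with the controls used. Against controls 3 and 4 alone Fcgr2b stood at 0.28 within TLR3-KO and 0.68 within WT macrophages, and against controls 1 and 2 alone at −0.26 within TLR3-KO and −0.12 within WT macrophages, none of these called.

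Neutrophils also carry Fc gamma receptors, and the sum of their markers was higher in injured mice. The summed level of the neutrophil list, 19 of 20 genes in the table with Elane at 0 in all libraries, was 482 ± 139 CPM in TLR3-KO injured and 256 ± 36.9 CPM in TLR3-KO control libraries, and 509 ± 251 CPM in WT injured and 233 ± 55.1 CPM in WT control libraries. It ranged from 325 to 633 CPM in TLR3-KO injured and from 209 to 297 CPM in TLR3-KO control libraries, and from 319 to 856 CPM in WT injured and from 154 to 273 CPM in WT control libraries. Each difference had an exact permutation p of 0.0286, the smallest that 4 against 4 libraries allow, and an adjusted p of 0.180 over 44 tests of marker sums. The mean was higher in injured libraries for 14 of the 19 genes in TLR3-KO and 16 of 19 in WT mice. Trem3 averaged 7.37 CPM in TLR3-KO injured libraries, against 7.40 CPM in TLR3-KO controls. The 5 defining genes summed to 56.6 to 143 CPM in TLR3-KO injured and 29.7 to 64.1 CPM in TLR3-KO control libraries, and to 58.1 to 249 CPM in WT injured and 29.6 to 60.6 CPM in WT control libraries, with overlap in both genotypes (exact permutation p 0.0571 each). The part of neutrophil RNA in the Fc receptor values was not tested.

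The signalling partners of these receptors did not pass the test. Fcer1g, the common gamma chain, averaged 628 ± 58.5 CPM in TLR3-KO injured, 666 ± 125 CPM in TLR3-KO control, 624 ± 93.5 CPM in WT injured and 562 ± 55.6 CPM in WT control libraries. Tyrobp, the adaptor DAP12, averaged 696 ± 104 CPM in TLR3-KO injured, 979 ± 204 CPM in TLR3-KO control, 891 ± 259 CPM in WT injured and 736 ± 186 CPM in WT control libraries (within TLR3-KO −0.55, SE 0.21, edgeR adjusted p 0.133). Of 24 tested genes of Fc receptor and dectin-1 signalling edgeR called none. By comparison 2 to 6 had an unadjusted edgeR p under 0.05, where 10.7% to 24.0% of all genes did. DESeq2 called 0 to 2, where it called 0.787% to 8.28% of all genes. Averaged over genotypes, the gene of this list with the lowest p was the adaptor Dok1, at −0.24 in injured against control libraries (SE 0.08, adjusted p 0.118). Among 11 tested other immunoglobulin receptors, the paired immunoglobulin-like receptors Pira2 and Lilrb3 were lower in TLR3-KO than in WT averaged over states, by −0.50 (SE 0.09, adjusted p 0.0112) and −0.42 (SE 0.08, adjusted p 0.0151). In that comparison 2.01% of all genes were called, 0.939% as lower. Both receptors belong to a multigene family whose members share sequence, which makes the assignment of their reads uncertain. Without TLR3-KO controls 1, 2 and 3 their adjusted p-values were 0.139 and 0.234.

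Among 14 other scavenger receptors tested, 3 were called, 2 of them in the comparison of injured with control libraries over both genotypes, where 2.34% of all genes were called, and 1 between genotypes in injured mice, where 0.618% were. Cd68, a lysosomal glycoprotein of macrophages, and Lgals3 (galectin-3) were lower in injured than in control libraries averaged over genotypes, by −0.28 (SE 0.07, edgeR adjusted p 0.0393) and −0.50 (SE 0.13, adjusted p 0.0496). Without TLR3-KO controls 1, 2 and 3 they stood at −0.23 (adjusted p 0.186) and −0.58 (adjusted p 0.116), and against controls 1 and 2 alone Lgals3 stood at −0.29 (adjusted p 0.128). Ager, the receptor for advanced glycation end products, which lung epithelium expresses in abundance, was higher in injured TLR3-KO than in injured WT libraries at 4.92, 7.21, 10.05 and 3.08 CPM, against 1.63, 2.21, 1.67 and 0.983 CPM (1.93, SE 0.42, adjusted p 0.0497). The sum of 12 alveolar epithelial markers, Ager among them, moved the same way, at 207 ± 20.4 CPM and 141 ± 11.9 CPM (exact permutation p 0.0286, adjusted p 0.180), and its part in the Ager value was not tested. These 3 calls lay just under the threshold and were lost under 13 of 24 alternatives for Cd68, 17 of 24 for Lgals3 and 10 of 24 for Ager.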

How the data were processed

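RNA of lavage macrophages was measured in 16 libraries, 4 in each of the groups that the sample titles give. The deposited table holds HTSeq read counts per gene symbol, per the file name, with no normalization. FastQC 0.11.3, TopHat2 2.0.13, Bowtie2 2.2.1, Cufflinks, Cuffdiff 2.1.1 and the build mm10 are named in the submitters' processing notes, in no order. HTSeq's version, strand setting and annotation are not given in the sources used here; reads of antisense and overlapping genes therefore cannot be told apart.

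Counts were filtered with filterByExpr (minimum count 10), which kept 12455 of 23159 genes, scaled by TMM and fitted in edgeR 4.0.16 (R 4.3.3) with 1 coefficient per group over all 16 libraries. The quasi-likelihood F test gave p-values, which were adjusted after Benjamini and Hochberg across the genes tested, and a gene was called under 0.05. The steps were tested on simulated data. CPM are counts scaled to one common library total. Lengths and positions come from GENCODE M21, in which 22956 symbols had a position, 2178 of them through an older symbol or RefSeq. For marker sums, an exact permutation test (two-sided) was run. DESeq2 1.42.0, other scalings and filters, fits of the groups compared alone, a replicate block, and fits without single libraries or sets of controls were the alternatives.

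Same-numbered TLR3-KO and WT controls deviated together from their group means, with correlations of 0.48 to 0.60 across genes in 4 pairs, so the numbers may pair those groups. The reported fit held no replicate block, so its p-values between TLR3-KO and WT controls leave this pairing out. With the block, run as an alternative, edgeR called 31 genes between these controls, in place of 87. In the other comparisons the lowest correlation was negative, down to −0.34, and the numbers were not taken to pair. No 2 libraries agreed within counting noise.

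The members and lists were chosen with earlier results of these data known. All 10 receptors are described. Of each other list, genes called in any of the 7 comparisons are named, up to 4 by lowest p, and otherwise the 2 of lowest unadjusted p; Gas6, Pros1, Fcer1g and Tyrobp are named for their roles. One gene that this rule names is not reported here.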

Additional observations from a re-analysis of the deposited data

Results flagged for a closer look

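In 40 sets of 4 libraries, 1 for each receptor and group, the highest or lowest library was compared in CPM with its nearest neighbour. Chance sets about 1 in 20 such groups apart, and 4 stood apart here. Marco in TLR3-KO control 3, at 618.7 CPM, lay far under the other 3 libraries of its group, which held 1010.5 to 1046 CPM. Fcgr3 in the same library, at 467.5 CPM, lay far over the others, which held 267 to 301 CPM. Scarb1 in WT control 3, at 189.5 CPM, lay over the other WT controls, which held 177 to 179 CPM, a narrow range. The TMM factors of WT controls 1 to 4 were 0.896, 0.903, 0.958 and 1.03. With them replicate 3 lay level with replicates 1 and 2 for Scarb1, so this flag rests on CPM alone. Clec7a in WT control 3, at 3406 CPM, lay over the other WT controls, which held 2378 to 2514 CPM. All 4 flags fell on replicate 3 of a control group, and they were taken in CPM without the TMM scaling of the fits. With that scaling Marco and Clec7a stood less far apart from their groups, so their flags rest on CPM as well.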

How the results depend on the processing

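The numbers of receptors called kept to the reported ones (0, 0, 0, 1, 0, 1 and 0) under other scalings, filters and the replicate block, which changed no receptor's call. DESeq2 called 1 in WT pneumonia (where it called 1.45% of all genes), 1 between TLR3-KO and WT controls (6.27%), 2 between genotypes over both states (6.62%) and 1 for the difference of the responses (0.787%). Without controls 1 and 2 the number was 5 within TLR3-KO, where 32.2% of all genes were called, and 4 averaged over genotypes, where 27.2% were. Without controls 3 and 4 it was 3 within WT (13% of all genes), 2 between genotypes over both states (5.96%) and 1 for the difference of the responses (0.457%). Leaving out single libraries gave 0 to 1 within TLR3-KO, the 1 being Mertk without TLR3-KO control 2, where 9.9% of all genes were called. It gave 0 to 1 between controls, 1 to 2 between genotypes over both states, and otherwise the reported number. Axl turned to −0.13 within TLR3-KO without controls 3 and 4 and to 0.14 within WT without controls 1 and 2. Fcgr2b turned to 0.28 within TLR3-KO without controls 1 and 2 and to −0.12 within WT without controls 3 and 4. Fcgr2b averaged over genotypes turned from 0.10 to −0.19 without controls 3 and 4. Mertk within WT, −0.04, turned to 0.047 with the replicate block and to 0.50 without controls 1 and 2, and ranged from −0.21 to 0.12 without single libraries, being positive without WT injured 2, WT control 1 or WT control 2. Msr1 within TLR3-KO turned to −0.091 without TLR3-KO controls 1, 2 and 3. The cause of these changes was not tested.

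Calls over all genes depended more on the setting. Within TLR3-KO edgeR called 192 genes, DESeq2 1031, the replicate block 11, and fits without single libraries 0 to 1248. Between TLR3-KO and WT in injured mice the numbers were 77, 444, 21 and 17 to 450, and in controls 87, 781, 31 and 17 to 467. Over both states they were 250, 824, 156 and 99 to 684. At the lowest levels, Fcgr1 had 268 to 1148 counts a library, so counting error limited no receptor as much as the spread between libraries did.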

Other observations

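Among other genes of uptake, edgeR called none for the difference of the responses to pneumonia, TLR3-KO minus WT, and no test of a list was run. Over all genes 47.2% of these differences were positive, with a median of −0.03 on the log2 scale. Of 23 tested genes of the engulfment machinery, which drives actin around the particle, 21 were positive, with a median of 0.32. Without TLR3-KO control 3, without TLR3-KO controls 1, 2 and 3, or with either pair of controls alone, 19 to 22 of the 23 were positive. Of 24 genes of Fc receptor and dectin-1 signalling 18 were positive, with a median of 0.35, and 17 to 19 were in those other fits. Of 15 other C-type lectin receptors 13 were negative, with a median of −0.41. Without TLR3-KO control 3, the library high in dendritic cell markers, 12 of 16 were negative with a median of −0.23, and with controls 1 and 2 alone 10 of 16 were. The genes of a list share libraries, so these counts describe the 16 libraries only.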
